A study of Mus musculus with 18 samples.

Results

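The genes described here are the 49 measured members of the Wnt signalling system, out of 24346 gene symbols in the tables. They were chosen by symbol alone: every *Wnt*, *Fzd* and *Sfrp* gene, *Dkk1* to *Dkk4*, *Rspo1* to *Rspo4*, and *Axin2*, *Lef1*, *Lrp5*, *Lrp6*, *Wif1*, *Frzb*, *Nkd1* and *Notum*. By role they were 19 ligands, 4 R-spondins, 12 receptors and co-receptors, 11 secreted antagonists and 3 target genes.

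Wnt proteins are secreted, lipid-modified ligands that bind a Frizzled receptor together with the co-receptor Lrp5 or Lrp6. Binding stops the degradation of beta-catenin, which then acts with TCF/LEF factors on target genes such as *Axin2*, while other Wnt ligands act on cell polarity without beta-catenin. R-spondins keep the receptors at the cell surface, Sfrp proteins, Frzb and Wif1 bind the ligands, Dkk proteins bind the co-receptors, and Notum removes the lipid of the ligand. In mouse ES cells the pathway supports self-renewal, and in the embryo it is needed for the primitive streak and the mesoderm.

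The study deleted *Kdm6a*, an X-linked gene for a histone demethylase that removes H3K27 methylation, in 2 female hybrid mouse ES cell lines and asked how the loss affects X inactivation during differentiation. *Tsix*-stop cells (129 × *cast*) carry, in wt, KO and CRISPR control cells alike, a transcriptional stop in *Tsix* on the 129 X chromosome. Per the methods, their KO libraries come from 2 clones homozygous for a deletion from part of exon 2 to part of exon 4. The CRISPR control went through the same procedure without a deletion. E8 cells (BL6 × *cast*) have no such stop, and their KO is a deletion of the *Kdm6a* promoter, for which the methods describe a single clone.
*Tsix*-stop cells were sequenced as ES cells at D0 and as embryoid bodies (EBs) at D15, kept for 7 days without LIF in suspension and then plated, with 2 wt, 2 KO and 1 CRISPR control library on each day. E8 cells were sequenced at D7 and D15 with 2 wt and 2 KO libraries on each day, and the methods describe E8 libraries of other days, so their culture at D7 and D15 is known only from the labels. No label ties a KO library to a clone, so a difference between *Tsix*-stop KO replicates 1 and 2 may be a difference between clones. The methods call the *Tsix*-stop wt libraries biological replicates, whereas nothing says that the E8 libraries of a group came from separate cultures, so p-values in E8 measure only the spread between these libraries, which may be technical.

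*Tsix*-stop libraries held 51091148 to 68796172 estimated counts. The deposited E8 values are TPM, a transcript abundance scaled to the same total in every library, which keeps no depth. *Kdm6a* itself was at 54.1 and 85.6 TPM (wt), 55.5 and 21.2 (KO) and 53.7 (control) in *Tsix*-stop cells at D0. At D15 it was at 64.3 and 48.9 (wt), 41.6 and 12.8 (KO) and 43.5 (control), a level per gene that also counts exons outside the deletion and so does not check it. In E8 it was at 47.8 and 47.5 TPM in wt and 0.0199 and 0.00578 in KO at D15. The CRISPR control was deposited under a name that calls it KO, whereas the labels call it a control, and the labels were followed. The pluripotency factor gene *Pou5f1* was at 1116 and 1357 TPM in *Tsix*-stop wt EBs and at 1865 and 2044 in E8 wt at D15, so a defining marker of ES cells was still high at D15.

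The system was mostly silent on the ligand side in ES cells and receptor-rich throughout. In *Tsix*-stop wt at D0 the 19 ligands together reached 10.5 to 11.4 TPM per library, while the 12 receptors reached 176 to 209 TPM and the 11 antagonists 198 to 239.95 TPM. In EBs at D15 the ligand sum was 135 to 147 TPM (wt), 44.9 to 93.1 TPM (KO) and 169.5 TPM (CRISPR control). In E8 the same sum was 14.3 to 15.6 TPM in wt and 72.7 to 74.9 TPM in KO at D15, so the genotypes stood in the opposite order in the 2 lines. The most abundant members per length were *Sfrp1*, *Fzd10* and *Notum* in *Tsix*-stop wt ES cells (123, 63.2 and 60.5 TPM, means of 2) and *Fzd7*, *Sfrp1* and *Fzd2* in wt EBs (127, 104 and 72.8 TPM).

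Of the 49 members, 35 passed the filter on low values in *Tsix*-stop cells (at least 2.5 CPM, counts scaled by library size, in 2 of the 8 wt and KO libraries) and 32 in E8 (at least 2.5 TPM in 2 libraries). A gene that is high in a single group passes this filter, so the counts below describe the genes that passed and not all 49. A gene was called when its false discovery rate over all genes (FDR, Benjamini-Hochberg) was at most 0.1 and its change at least 2-fold. Between D0 and D15 in *Tsix*-stop wt, 24 members rose and 3 fell, 27 of the 35 tested, where 24.2% of all 13121 genes tested were called higher and 13.6% lower, 37.8% in all. Their median log2 change was 2.48, against 0.018 over all genes. In KO, 16 rose and 5 fell between the same days, with 20% of all genes called higher and 7.66% lower (27.6% in all), and the median was 0.77.
KO against wt in the same line gave 3 members higher at D0, *Sfrp2*, *Notum* and *Nkd1*, where 3.11% of all genes were called higher and 5.01% lower (8.12% in all). The count of lower members at D0 was 0 by edgeR and by DESeq2, with 2 by edgeR and 3 by DESeq2 at an unadjusted p under 0.05. At D15, 15 members were lower in KO and 1 was higher, where 11.1% of all genes were called lower and 3.83% higher (14.9% in all). The median log2 difference of the members was -0.999 at D15, that of all genes -0.002. By role, 5 of 9 tested ligands, 1 of 2 R-spondins, 3 of 12 receptors, 5 of 9 antagonists and 1 of 3 targets were lower.
The interaction of genotype and day, which compares the change over time in KO with that in wt, was called for 14 members in *Tsix*-stop cells, 13 with a smaller rise or a larger fall in KO and 1 the other way. Of all genes 10.5% had a called interaction below 0 and 6.62% above 0 (17.1% in all). With the CRISPR control counted among the wt libraries 3 members had a called interaction, and without wt replicate 1 or 2 of D15 8 had one. The shares above belong to the main fit, and those of the fits with the control or without a library are not given here. In the main fit the medians were -1.21 for the members and 0.015 for all genes.

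E8 went the other way. At D7, 11 members were higher in KO and 3 lower, where 11.4% of all 12452 genes tested were called higher and 6.18% lower (17.5% in all). At D15, 17 were higher and 2 lower, beside 7.67% and 3.08% of all genes (10.7% in all). The medians of the members were 0.14 at D7 and 1.08 at D15. The higher members at D15 were 8 of 9 tested ligands, 1 of 2 R-spondins, 2 of 10 receptors, 3 of 8 antagonists and all 3 targets. Over all genes the E8 difference between KO and wt had a median of 0.105 at D7 and 0.085 at D15 on the log2(TPM + 1) scale. The E8 differences and calls below are not corrected for that shift. When libraries were scaled to equal medians, the calls of *Wnt3* at D7 (0.972) and *Notum* at D15 (0.854) were lost. Because a pseudocount of 1 was added, these E8 differences understate the change of low genes.
Between D7 and D15 in E8 wt, *Wnt3* and *Lef1* fell and 0 members rose by limma (5 at an unadjusted p under 0.05), with 0.586% of all genes called higher and 0.819% lower (1.41% in all). With a pseudocount of 0.1 or 0.5 in place of 1, or with small RNA genes left out, 7, 5 and 5 members fell in E8 wt. In E8 KO *Wnt5a*, *Wnt5b*, *Wnt6* and *Sfrp2* rose and *Wnt11* and *Frzb* fell, beside 3.41% and 2.7% of all genes (6.11% in all). When small RNA genes were left out and TPM rescaled, 9 members rose and 2 fell in E8 KO. Shares of all genes under these other settings are not given here. The interaction of genotype and day was called above 0 for 8 members and below 0 for 1, beside 3.89% and 3.36% of all genes (7.25% in all).
All differences below are log2 differences ± SE, of CPM by edgeR in *Tsix*-stop cells and of TPM + 1 by limma in E8.

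**Figure D1:**
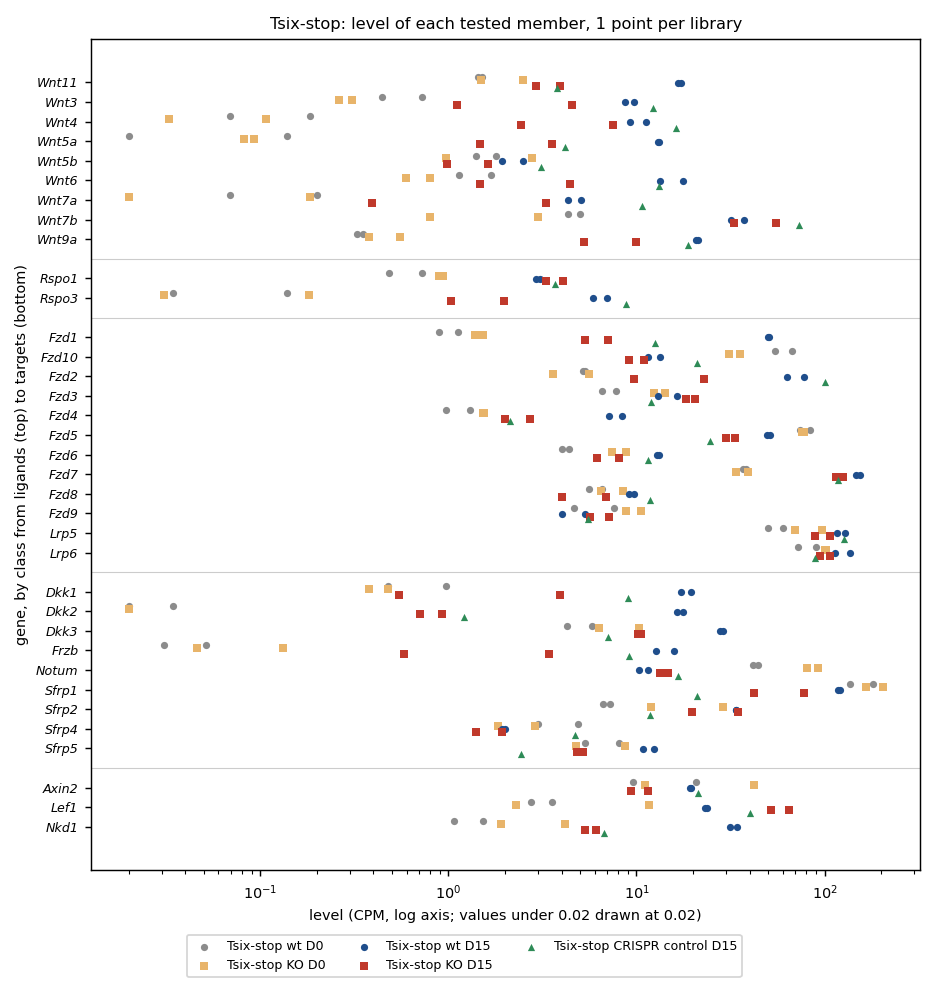
Level of the 35 tested members in *Tsix*-stop cells, in CPM on a log axis, with 1 point per library and rows grouped from ligands to targets. Every tested ligand but *Wnt7b* stood at 2.77 CPM or less at D0, and the blue wt D15 points of *Dkk2*, *Fzd1* and *Nkd1* lay far to the right of the red KO points. Points of libraries with nearly equal values cover each other.

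Among the ligands, *Wnt3* is the ligand that the embryo needs to form the primitive streak. For *Wnt3* the D0 libraries held 0.446 and 0.724 CPM (wt), 0.263 and 0.308 (KO) and 0.683 (control), and the D15 libraries 8.7 and 9.75 (wt), 1.11 and 4.54 (KO) and 12.2 (control). E8 libraries held 2.12 and 2.08 TPM of *Wnt3* (wt D7), 5.78 and 5.95 (KO D7), 0.309 and 0.299 (wt D15) and 12.3 and 12.1 (KO D15). No KO library reached the wt libraries at D15 in *Tsix*-stop cells, and in E8 the order was reversed at both days. The D15 difference was -1.71 ± 0.55 (log2, SE, edgeR FDR 0.041) in *Tsix*-stop and 3.34 ± 0.05 (limma FDR 1.3e-08) in E8. The *Tsix*-stop difference was -3.02 without KO replicate 2 of D15. Its call was lost without KO replicate 1 of D15 (-0.998) and without wt replicate 1 or 2 of that day (-1.77 and -1.62). E8 wt was the sole E8 genotype in which *Wnt3* fell between the days (-1.25 ± 0.05), and the interaction of genotype and day was 2.19 ± 0.08 (limma FDR 2e-06).

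*Wnt6* lies next to *Wnt10a* on chromosome 1 and is made by epithelia. *Wnt6* at D0 was at 1.68 and 1.14 CPM (wt), 0.593 and 0.801 (KO) and 0.668 (control), and at D15 at 13.3 and 17.7 (wt), 1.48 and 4.43 (KO) and 13.2 (control) in *Tsix*-stop cells. *Wnt6* in E8 measured 0.64 and 0.447 TPM (wt) against 2.19 and 2.92 (KO) at D7, and 0.844 and 0.896 (wt) against 7.49 and 6.59 (KO) at D15. The KO EBs of *Tsix*-stop cells held less than either wt library (-2.39 ± 0.47, edgeR FDR 0.0064), whereas the CRISPR control lay just under the lower wt library. Without KO replicate 1 or 2 of D15 the difference was -1.78 or -3.36. E8 KO was higher by 1.20 ± 0.12 at D7 and 2.10 ± 0.12 at D15.

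*Wnt5a* is the main ligand of the polarity branch. *Wnt5a* stood at 0 and 0.138 CPM (wt), 0.0823 and 0.0924 (KO) and 0.0621 (control) at D0, and at 13.1 and 13 (wt), 1.48 and 3.58 (KO) and 4.19 (control) at D15. *Wnt5a* in E8 was at 0.686 and 0.608 TPM (wt) and 3.29 and 3.05 (KO) on D7, and at 0.175 and 0.165 (wt) and 10.8 and 11.1 (KO) on D15. Its rise in *Tsix*-stop wt, 7.59 ± 0.80, rested on 2 D0 libraries near 0 and was 6.52 or 12.62 without replicate 1 or 2 of wt D0. KO EBs held less (-2.37 ± 0.56, edgeR FDR 0.013), at -3.12 without KO replicate 2 of D15. The difference in E8 grew from 1.34 ± 0.07 at D7 to 3.36 ± 0.07 at D15, with an interaction of 2.02 ± 0.09 (limma FDR 5.1e-06). *Wnt5b* is its closest relative. For *Wnt5b* the D0 libraries held 1.4 and 1.79 CPM (wt), 0.971 and 2.77 (KO) and 1.24 (control), and the D15 libraries 1.93 and 2.5 (wt), 0.978 and 1.62 (KO) and 3.09 (control). E8 libraries held 2.09 and 2.2 TPM of *Wnt5b* (wt D7), 1.59 and 1.59 (KO D7), 1.02 and 1.2 (wt D15) and 6.16 and 6.21 (KO D15). It was not called in *Tsix*-stop cells, while in E8 it was higher in KO at D15 (1.77 ± 0.07) and its interaction was 2.05 ± 0.10.

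*Wnt11*, another ligand of the polarity branch, is needed for the movements of gastrulation. *Wnt11* at D0 was at 1.43 and 1.52 CPM (wt), 1.5 and 2.5 (KO) and 1.66 (control), and at D15 at 16.7 and 17.1 (wt), 2.92 and 3.91 (KO) and 3.76 (control) in *Tsix*-stop cells. *Wnt11* in E8 measured 1.53 and 1.32 TPM (wt) against 14.9 and 14.8 (KO) at D7, and 0.848 and 1.04 (wt) against 3.23 and 3.38 (KO) at D15. The wt EBs rose 3.52 ± 0.30 above ES cells, the KO EBs 0.77 ± 0.28, and the interaction of genotype and day was -2.75 ± 0.41 (edgeR FDR 0.0034). In E8 the KO peak was at D7, and *Wnt11* then fell between the days in KO (-1.88 ± 0.07), which gave an interaction of -1.56 ± 0.10 (limma FDR 2.3e-05).

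*Wnt9a* lies next to *Wnt3a* on chromosome 11. *Wnt9a* stood at 0.354 and 0.328 CPM (wt), 0.379 and 0.555 (KO) and 0.512 (control) at D0, and at 20.7 and 21.1 (wt), 5.25 and 9.91 (KO) and 18.8 (control) at D15. *Wnt9a* in E8 was at 0.884 and 1.14 TPM (wt) and 7.75 and 8.28 (KO) on D7, and at 1.46 and 1.1 (wt) and 4.25 and 4.58 (KO) on D15. It was lower in *Tsix*-stop KO EBs (-1.46 ± 0.31) and higher in E8 KO by 2.17 ± 0.10 at D7 and 1.25 ± 0.10 at D15. *Wnt4*, a ligand known from kidney and gonad development, varied more between the KO libraries. For *Wnt4* the D0 libraries held 0.185 and 0.069 CPM (wt), 0.0329 and 0.108 (KO) and 0.0776 (control), and the D15 libraries 9.26 and 11.3 (wt), 2.44 and 7.48 (KO) and 16.3 (control). E8 libraries held 0.829 and 0.702 TPM of *Wnt4* (wt D7), 6.02 and 6.2 (KO D7), 0.496 and 0.361 (wt D15) and 3.6 and 3.36 (KO D15). The *Tsix*-stop difference at D15 missed the threshold (-1.05 ± 0.51, edgeR FDR 0.14), and E8 KO was higher at both days (2.01 ± 0.08 and 1.65 ± 0.08).

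*Wnt7a* and *Wnt7b* are related ligands that are known for roles in limb and brain. *Wnt7a* at D0 was at 0.2 and 0.069 CPM (wt), 0.0165 and 0.185 (KO) and 0.109 (control), and at D15 at 4.33 and 5.06 (wt), 0.394 and 3.32 (KO) and 10.7 (control) in *Tsix*-stop cells. *Wnt7a* in E8 measured 0.18 and 0.0884 TPM (wt) against 1.8 and 1.68 (KO) at D7, and 0.132 and 0.134 (wt) against 1.94 and 1.87 (KO) at D15. The 2 KO EB libraries differed more from each other than the wt libraries did, and the difference from wt was not called (-1.34 ± 0.83). The gene did not pass the filter in E8, where each KO library was above each wt library. *Wnt7b* stood at 4.31 and 5.04 CPM (wt), 2.98 and 0.801 (KO) and 1.37 (control) at D0, and at 31.7 and 37.4 (wt), 33.1 and 55.1 (KO) and 73.1 (control) at D15. *Wnt7b* in E8 was at 15.1 and 13.6 TPM (wt) and 21.5 and 21.6 (KO) on D7, and at 7.32 and 8.5 (wt) and 16.8 and 16 (KO) on D15. *Wnt7b* was the ligand with the highest TPM in E8 in every group and did not differ between genotypes by the call in either line. In E8 at D15 its difference was 0.968, just under 2-fold on that scale, with each KO library above each wt library. Its interaction in *Tsix*-stop cells was the one called above 0, 1.66 ± 0.66 (edgeR FDR 0.099), and this call was lost in 10 of 16 other settings. It overlaps an antisense gene that the tables also hold, and without stated strand the reads of the pair cannot be told apart. *Wnt8a* is a ligand of the early embryo's posterior side. For *Wnt8a* the D0 libraries held 0.0154 and 0.0345 CPM (wt), 0.0658 and 0.123 (KO) and 0.0311 (control), and the D15 libraries 1.18 and 1.48 (wt), 0.515 and 1.11 (KO) and 4.7 (control). E8 libraries held 2.85 and 2.84 TPM of *Wnt8a* (wt D7), 4.34 and 4.34 (KO D7), 0.898 and 1.05 (wt D15) and 4.01 and 3.75 (KO D15). It did not pass the filter in *Tsix*-stop cells, and E8 KO was higher at D15 by 1.31 ± 0.07.

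Of the ligand genes, 8 lie in 4 neighbouring pairs. *Wnt3* and *Wnt9b* lie 24.3 kb apart, *Wnt9a* and *Wnt3a* 16.2 kb, *Wnt10b* and *Wnt1* 11.7 kb, and *Wnt6* and *Wnt10a* 6.19 kb (GENCODE vM21, GRCm38). The neighbours of *Wnt3*, *Wnt9a* and *Wnt6* did not pass the filter in either line. *Wnt9b* stayed at 0 to 0.256 CPM in *Tsix*-stop and 0 to 0.231 TPM in E8, and *Wnt3a* at 0.0155 to 0.36 CPM in *Tsix*-stop and 0.0575 to 0.452 TPM in E8. *Wnt10a* was at 0.0462 to 1.26 CPM in *Tsix*-stop and 0.0249 to 0.363 TPM in E8. Its *Tsix*-stop libraries, described after their values were seen, held 0.123 and 0.069 CPM (wt) and 0.132 and 0.0462 (KO) at D0, and 1.07 and 1.26 (wt), 0.154 and 0.255 (KO) and 0.996 (control) at D15, so both wt EB libraries and the control lay above the KO EBs for *Wnt10a* as for *Wnt6*.

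The remaining ligands did not pass the filter in either line. *Wnt1* ranged over 0 to 0.0944 CPM in *Tsix*-stop and 0 to 0.181 TPM in E8, and *Wnt10b* over 0.0308 to 2.26 CPM in *Tsix*-stop and 0 to 0.293 TPM in E8. *Wnt16* ranged over 0.0462 to 1.53 CPM in *Tsix*-stop and 0.168 to 0.451 TPM in E8. *Wnt2*, a ligand known from lung development, is given by library after its values were seen. *Wnt2* at D0 was at 0 and 0 CPM (wt), 0 and 0 (KO) and 0.0155 (control), and at D15 at 1.86 and 1.5 (wt), 0.0858 and 0.219 (KO) and 0.0699 (control) in *Tsix*-stop cells. *Wnt2* in E8 measured 0.517 and 0.734 TPM (wt) against 0.0771 and 0.169 (KO) at D7, and 0 and 0 (wt) against 2.53 and 2.32 (KO) at D15. The 4 wt and KO libraries of D0 held 0 counts, and the wt EBs were at least 34.3-fold higher against a floor of 3 counts per library. *Wnt2* was lower in KO than in wt EBs in *Tsix*-stop cells, and in E8 it was lower in KO at D7 and above wt at D15, with no overlap and no test. *Wnt2b* ranged over 0.215 to 1.63 CPM in *Tsix*-stop and 0.108 to 0.51 TPM in E8, and *Wnt8b* over 0.0154 to 0.292 CPM in *Tsix*-stop and 0.0229 to 0.17 TPM in E8.

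R-spondins bind Lgr receptors and raise the number of Wnt receptors on the cell. *Rspo3* stood at 0.138 and 0.0345 CPM (wt), 0.181 and 0.0308 (KO) and 0.0311 (control) at D0, and at 6.95 and 5.88 (wt), 1.03 and 1.97 (KO) and 8.77 (control) at D15. *Rspo3* in E8 was at 1.16 and 0.979 TPM (wt) and 8.44 and 8.5 (KO) on D7, and at 0.666 and 0.745 (wt) and 17.7 and 17.4 (KO) on D15. *Rspo3* rose by 6.15 ± 0.70 in *Tsix*-stop wt, and by 7.43 or 5.51 without replicate 1 or 2 of wt D0. KO EBs held less (-2.10 ± 0.53, edgeR FDR 0.017), a call that was lost without wt replicate 1 of D15 (-1.951), and the CRISPR control was above both wt libraries. In E8 the KO libraries were higher by 2.19 ± 0.06 at D7 and 3.44 ± 0.06 at D15, and the interaction was 1.25 ± 0.09 (limma FDR 3.3e-05).
For *Rspo1* the D0 libraries held 0.723 and 0.483 CPM (wt), 0.938 and 0.894 (KO) and 0.637 (control), and the D15 libraries 3.05 and 2.92 (wt), 4.08 and 3.3 (KO) and 3.67 (control). E8 libraries held 4.8 and 5.22 TPM of *Rspo1* (wt D7), 2.2 and 2.54 (KO D7), 3.97 and 4.26 (wt D15) and 3.09 and 2.63 (KO D15). *Rspo1* rose in *Tsix*-stop wt (2.30 ± 0.32) and in KO (2.01 ± 0.31), with no call between the genotypes in either line. *Rspo2* and *Rspo4* did not pass the filter. *Rspo2* ranged over 0.0686 to 0.658 CPM in *Tsix*-stop and 0.0179 to 0.188 TPM in E8, and *Rspo4* over 0.0345 to 1.24 CPM in *Tsix*-stop and 0.227 to 1.92 TPM in E8.

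Among the receptors *Fzd1*, *Fzd2* and *Fzd4* were lower in *Tsix*-stop KO EBs, while the abundant *Fzd7* and *Fzd5* differed by less than 2-fold between genotypes. *Fzd1* at D0 was at 1.12 and 0.897 CPM (wt), 1.38 and 1.53 (KO) and 1.35 (control), and at D15 at 50.9 and 49.96 (wt), 5.32 and 7.04 (KO) and 12.6 (control) in *Tsix*-stop cells. *Fzd1* in E8 measured 1.11 and 1.13 TPM (wt) against 4.1 and 4.75 (KO) at D7, and 0.941 and 1.1 (wt) against 4.83 and 4.8 (KO) at D15. Both wt EB libraries lay at about the same level, far above the KO libraries and the CRISPR control. The difference was -3.03 ± 0.20 (edgeR FDR 0.0001), and the interaction with day was -3.55 ± 0.29 (edgeR FDR 0.00047). In E8 the KO libraries were the higher ones, by 1.35 ± 0.08 at D7 and 1.53 ± 0.08 at D15.
*Fzd2* stood at 5.17 and 5.35 CPM (wt), 5.6 and 3.62 (KO) and 2.93 (control) at D0, and at 63.1 and 77.7 (wt), 9.67 and 22.8 (KO) and 100.2 (control) at D15. *Fzd2* in E8 was at 6.4 and 6.16 TPM (wt) and 27.1 and 29 (KO) on D7, and at 4.67 and 4.46 (wt) and 14.7 and 14.2 (KO) on D15. Here the CRISPR control exceeded both wt libraries, and the KO libraries lay below them (-2.12 ± 0.37, edgeR FDR 0.0036), at -2.84 without KO replicate 2 of D15. E8 KO was higher by 2.00 ± 0.05 and 1.47 ± 0.05 at D7 and D15. *Fzd4*, the receptor of the Norrin ligand and known from vessels of the eye, was low. For *Fzd4* the D0 libraries held 0.969 and 1.31 CPM (wt), 1.53 and 1.56 (KO) and 2.3 (control), and the D15 libraries 8.35 and 7.14 (wt), 2.73 and 1.99 (KO) and 2.11 (control). E8 libraries held 1.52 and 1.62 TPM of *Fzd4* (wt D7), 1.97 and 1.7 (KO D7), 1.79 and 1.58 (wt D15) and 2.92 and 3.11 (KO D15). KO EBs were below wt (-1.71 ± 0.28), and the CRISPR control lay with the KO libraries.

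*Fzd7* was the most abundant receptor in wt EBs and in all E8 groups. *Fzd7* at D0 was at 37 and 38.2 CPM (wt), 33.7 and 39 (KO) and 21.5 (control), and at D15 at 155 and 148 (wt), 115 and 125 (KO) and 117 (control) in *Tsix*-stop cells. *Fzd7* in E8 measured 61.2 and 59.5 TPM (wt) against 53.8 and 53.6 (KO) at D7, and 50.9 and 51.5 (wt) against 92.8 and 94.3 (KO) at D15. It rose from D0 to D15 in wt (2.01 ± 0.12) and in KO (1.72 ± 0.12), and its KO-wt differences of -0.34 and, in E8, -0.16 and 0.86 stayed under 2-fold. The interaction in E8 was called at 1.02 ± 0.04. 
*Fzd5* stood at 73.8 and 83.9 CPM (wt), 77.6 and 75.4 (KO) and 78.5 (control) at D0, and at 51.4 and 49.3 (wt), 33.4 and 30.002 (KO) and 24.7 (control) at D15. *Fzd5* in E8 was at 15.1 and 15.1 TPM (wt) and 16.2 and 15.6 (KO) on D7, and at 13.1 and 14.5 (wt) and 18 and 18 (KO) on D15. *Fzd5* fell from D0 to D15 in KO (-1.27 ± 0.12), while its change in wt, -0.65 ± 0.12, was under 2-fold. *Fzd10* had the highest TPM of the receptors in wt ES cells. For *Fzd10* the D0 libraries held 54.6 and 66.7 CPM (wt), 31 and 35.7 (KO) and 27.3 (control), and the D15 libraries 11.6 and 13.3 (wt), 10.9 and 9.09 (KO) and 21 (control). E8 libraries held 13.7 and 12.1 TPM of *Fzd10* (wt D7), 11.8 and 12 (KO D7), 17 and 16.2 (wt D15) and 16.5 and 17.1 (KO D15). It fell to D15 in both genotypes (-2.29 ± 0.17 in wt, -1.73 ± 0.17 in KO). *Fzd9* was the one receptor called lower in E8 KO. *Fzd9* at D0 was at 7.57 and 4.64 CPM (wt), 10.6 and 8.78 (KO) and 9.33 (control), and at D15 at 4.03 and 5.33 (wt), 7.12 and 5.64 (KO) and 5.54 (control) in *Tsix*-stop cells. *Fzd9* in E8 measured 8.2 and 8.05 TPM (wt) against 1.98 and 1.5 (KO) at D7, and 7.75 and 8.73 (wt) against 3.4 and 2.74 (KO) at D15. That difference was -1.74 ± 0.11 at D7 and -1.19 ± 0.11 at D15, and in *Tsix*-stop cells it was 0.45 ± 0.29 and not called.

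*Fzd3* and *Fzd6* are known for planar polarity in hair and axons. *Fzd3* stood at 7.77 and 6.54 CPM (wt), 14.2 and 12.4 (KO) and 10.1 (control) at D0, and at 16.4 and 13 (wt), 18.3 and 20.5 (KO) and 11.9 (control) at D15. *Fzd3* in E8 was at 2.05 and 2.05 TPM (wt) and 1.86 and 1.87 (KO) on D7, and at 2.13 and 2.03 (wt) and 2.24 and 2.15 (KO) on D15. *Fzd3* rose in wt (1.04 ± 0.19), a call lost in 4 of 16 other settings, and did not pass the filter in E8. For *Fzd6* the D0 libraries held 4.02 and 4.4 CPM (wt), 7.44 and 8.77 (KO) and 6.66 (control), and the D15 libraries 13.2 and 12.8 (wt), 6.17 and 8.07 (KO) and 11.6 (control). E8 libraries held 3.02 and 3.66 TPM of *Fzd6* (wt D7), 5.05 and 4.45 (KO D7), 2.36 and 2.19 (wt D15) and 3.37 and 3.43 (KO D15). *Fzd6* rose in wt (1.63 ± 0.21) but not by the call in KO (-0.19 ± 0.21), and the interaction was -1.82 ± 0.30 (edgeR FDR 0.005). *Fzd8* at D0 was at 6.54 and 5.62 CPM (wt), 8.49 and 6.44 (KO) and 6.75 (control), and at D15 at 9.12 and 9.71 (wt), 4 and 6.86 (KO) and 11.8 (control) in *Tsix*-stop cells. *Fzd8* in E8 measured 2.45 and 2.34 TPM (wt) against 2.16 and 2.64 (KO) at D7, and 1.59 and 1.87 (wt) against 2.12 and 2.27 (KO) at D15. *Fzd8* had a called interaction of -1.09 ± 0.40, lost in 9 of 16 other settings, from changes of 0.63 in wt and -0.46 in KO that were not called.
The co-receptors Lrp5 and Lrp6, which signalling through beta-catenin needs, had no called difference between genotypes in either line. *Lrp5* stood at 49.9 and 60.4 CPM (wt), 69.3 and 96.5 (KO) and 63.9 (control) at D0, and at 117 and 128 (wt), 89.2 and 106 (KO) and 127 (control) at D15. *Lrp5* in E8 was at 36.1 and 32.9 TPM (wt) and 37.9 and 37.2 (KO) on D7, and at 37.9 and 41.9 (wt) and 47.7 and 47.8 (KO) on D15. *Lrp5* rose from D0 to D15 in *Tsix*-stop wt (1.16 ± 0.18) and its change in KO was 0.24 ± 0.18. For *Lrp6* the D0 libraries held 72.5 and 90.4 CPM (wt), 101 and 100.04 (KO) and 109 (control), and the D15 libraries 136 and 113 (wt), 94.3 and 107 (KO) and 88.7 (control). E8 libraries held 14.7 and 15.1 TPM of *Lrp6* (wt D7), 17 and 16.2 (KO D7), 14.4 and 14.8 (wt D15) and 18.7 and 19 (KO D15). *Lrp6* was called in none of the comparisons made.

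Among the antagonists *Dkk2* and *Frzb* rose most from D0 to D15 in *Tsix*-stop wt. Dickkopf proteins block Lrp5 and Lrp6, and *Dkk1* is itself a target of the pathway. *Dkk1* at D0 was at 0.477 and 0.966 CPM (wt), 0.379 and 0.478 (KO) and 0.761 (control), and at D15 at 19.5 and 17.3 (wt), 0.549 and 3.92 (KO) and 9.02 (control) in *Tsix*-stop cells. *Dkk1* in E8 measured 0.547 and 0.496 TPM (wt) against 17.6 and 18.4 (KO) at D7, and 0.111 and 0.0536 (wt) against 11 and 11.5 (KO) at D15. The KO EB libraries were unlike each other and both below wt and control (-3.04 ± 0.71, edgeR FDR 0.013). Without KO replicate 1 or 2 of that day the difference in *Dkk1* was -2.21 or -5.04. In E8 the difference was the largest of all members at D7, 3.64 ± 0.06, and 3.50 ± 0.06 at D15 (limma FDR 1.6e-08).
*Dkk2* stood at 0 and 0.0345 CPM (wt), 0 and 0 (KO) and 0 (control) at D0, and at 17.6 and 16.4 (wt), 0.703 and 0.931 (KO) and 1.21 (control) at D15. *Dkk2* in E8 was at 0.0117 and 0 TPM (wt) and 1.51 and 1.83 (KO) on D7, and at 0.016 and 0 (wt) and 0.603 and 0.61 (KO) on D15. *Dkk2*, a relative that can also activate the pathway, was near 0 in ES cells and highest in wt EBs. Pooled wt counts gave 1047 times the D0 level with an exact counting interval of 289.6 to 8655, on 2 counts at D0. The KO libraries of D0 held 0 counts, and those of D15 were at least 17.1-fold higher against a floor of 3 counts per library. KO EBs were below wt (-4.38 ± 0.38, edgeR FDR 0.00036), and the CRISPR control lay near the KO libraries. It did not pass the filter in E8, where the KO libraries were above all wt libraries.
For *Dkk3* the D0 libraries held 5.83 and 4.26 CPM (wt), 6.35 and 10.4 (KO) and 3.91 (control), and the D15 libraries 27.7 and 28.8 (wt), 10.6 and 10.2 (KO) and 7.02 (control). E8 libraries held 2.88 and 2.64 TPM of *Dkk3* (wt D7), 2.18 and 1.83 (KO D7), 3.65 and 2.99 (wt D15) and 3.64 and 3.32 (KO D15). *Dkk3*, a divergent member that does not bind the co-receptors, rose in *Tsix*-stop wt (2.48 ± 0.26) but was not called in KO (0.32 ± 0.25), with an interaction of -2.17 ± 0.36 (edgeR FDR 0.0051). *Dkk4* was at 0 to 0.073 CPM in *Tsix*-stop and 0 to 0.133 TPM in E8.

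*Frzb* encodes a secreted Frizzled-like protein that binds Wnt ligands. *Frzb* at D0 was at 0.0308 and 0.0517 CPM (wt), 0.132 and 0.0462 (KO) and 0.0466 (control), and at D15 at 15.9 and 12.8 (wt), 0.583 and 3.41 (KO) and 9.09 (control) in *Tsix*-stop cells. *Frzb* in E8 measured 0.923 and 0.838 TPM (wt) against 18.4 and 18 (KO) at D7, and 0.0414 and 0.0668 (wt) against 5.49 and 4.81 (KO) at D15. In wt the pooled counts gave 355 times the D0 level (exact counting interval 152 to 1095), on 5 counts at D0. KO EBs were lower (-2.85 ± 0.66, edgeR FDR 0.012) and the CRISPR control lay between the groups. Leaving out KO replicate 1 or 2 of D15 gave -2.05 or -4.59. In E8 the KO libraries were higher by 3.35 ± 0.07 at D7 and 2.54 ± 0.07 at D15, after a fall between the days in KO of -1.64 ± 0.07.

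*Sfrp1* was the most abundant antagonist of ES cells and was called lower in E8 KO. *Sfrp1* stood at 136 and 182 CPM (wt), 165 and 204 (KO) and 106 (control) at D0, and at 117 and 121 (wt), 77.6 and 41.9 (KO) and 20.9 (control) at D15. *Sfrp1* in E8 was at 38.4 and 38.7 TPM (wt) and 17.5 and 16.9 (KO) on D7, and at 63.9 and 66.7 (wt) and 29.6 and 29.6 (KO) on D15. At D15 the *Tsix*-stop KO libraries were below wt (-0.999 ± 0.27, edgeR FDR 0.021), just under 2-fold, and the CRISPR control was lower still. The E8 differences were -1.12 ± 0.04 at D7 and -1.11 ± 0.04 at D15, both called.
*Sfrp2* was higher in *Tsix*-stop KO ES cells. For *Sfrp2* the D0 libraries held 7.23 and 6.62 CPM (wt), 28.9 and 11.9 (KO) and 15.4 (control), and the D15 libraries 33.8 and 33.9 (wt), 34.6 and 19.6 (KO) and 11.8 (control). E8 libraries held 25.9 and 24.3 TPM of *Sfrp2* (wt D7), 8.31 and 7.88 (KO D7), 20.5 and 21.3 (wt D15) and 19.4 and 19.6 (KO D15). The D0 difference was 1.56 ± 0.40 (edgeR FDR 0.036), and the CRISPR control stood between the KO libraries. Without KO replicate 1 of D0 it was 0.78 and no longer called. In E8, KO was lower at D7 (-1.52 ± 0.05) and level with wt at D15, an interaction of 1.43 ± 0.07 (limma FDR 4.9e-06).
*Sfrp5* at D0 was at 8.09 and 5.33 CPM (wt), 8.68 and 4.78 (KO) and 9.41 (control), and at D15 at 10.8 and 12.3 (wt), 5.2 and 4.84 (KO) and 2.45 (control) in *Tsix*-stop cells. *Sfrp5* in E8 measured 5.75 and 5.76 TPM (wt) against 5.68 and 4.8 (KO) at D7, and 3.35 and 5.01 (wt) against 3.42 and 3.13 (KO) at D15. *Sfrp5* was lower in KO EBs (-1.20 ± 0.32), a call lost without wt replicate 2 of D15 (-1.10), and it was not called in E8. *Sfrp4* stood at 4.89 and 2.98 CPM (wt), 2.9 and 1.83 (KO) and 2.41 (control) at D0, and at 1.92 and 1.99 (wt), 1.94 and 1.41 (KO) and 4.68 (control) at D15. *Sfrp4* in E8 was at 5.54 and 5.7 TPM (wt) and 4.65 and 4.51 (KO) on D7, and at 10.7 and 11.1 (wt) and 10.2 and 9.79 (KO) on D15. *Sfrp4* fell in *Tsix*-stop wt (-1.01 ± 0.36), a call lost in 6 of 15 other settings, and was not called between genotypes. For *Wif1* the D0 libraries held 2.8 and 1.64 CPM (wt), 2.45 and 2.42 (KO) and 4.21 (control), and the D15 libraries 1.97 and 1.5 (wt), 1.7 and 1.2 (KO) and 1.59 (control). E8 libraries held 0.666 and 0.602 TPM of *Wif1* (wt D7), 0.169 and 0.238 (KO D7), 0.276 and 0.321 (wt D15) and 0.494 and 0.474 (KO D15). *Wif1* did not pass the filter in either line.

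*Notum* encodes the enzyme that removes the lipid from Wnt ligands, and it is a target of the pathway. *Notum* at D0 was at 41.7 and 44.5 CPM (wt), 80.6 and 92.3 (KO) and 41 (control), and at D15 at 10.4 and 11.4 (wt), 13.4 and 14.7 (KO) and 16.7 (control) in *Tsix*-stop cells. *Notum* in E8 measured 10.4 and 8.81 TPM (wt) against 9.52 and 10.4 (KO) at D7, and 4.3 and 4.72 (wt) against 9.95 and 10.1 (KO) at D15. In ES cells the KO libraries were above wt and control, from wt by 1.01 ± 0.13 (edgeR FDR 0.0027). It fell to D15 in wt (-1.98 ± 0.13) and KO (-2.62 ± 0.13). In E8 KO it was higher at D15 by 1.00 ± 0.08, a call lost when libraries were scaled to equal medians, without wt replicate 1 and without KO replicate 2 of D15 (0.854, 0.946 and 0.990). The annotation places antisense genes across *Notum*, which the tables do not list, and reads of these could count for it.

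The 3 targets are genes that beta-catenin switches on. Axin2 is part of the complex that degrades beta-catenin and is made in response to it. *Axin2* stood at 9.55 and 20.7 CPM (wt), 11.1 and 41.9 (KO) and 22.4 (control) at D0, and at 19.4 and 19.3 (wt), 9.38 and 11.5 (KO) and 21.1 (control) at D15. *Axin2* in E8 was at 5.34 and 4.82 TPM (wt) and 9.5 and 9.19 (KO) on D7, and at 3.77 and 3.94 (wt) and 13.5 and 13.4 (KO) on D15. Between *Tsix*-stop genotypes it was called on neither day (0.81 ± 0.54 at D0, where the groups overlapped, and -0.89 ± 0.55 at D15, where both KO libraries were below wt and control). It fell from D0 to D15 in KO (-1.34 ± 0.55) although the groups overlapped, and this call was lost in 7 of 16 other settings. Without KO replicate 2 of D0 the change was -0.086. In E8 KO it was higher at D15 by 1.58 ± 0.06 (limma FDR 3.6e-07).
Lef1 is the DNA-binding partner of beta-catenin. For *Lef1* the D0 libraries held 2.75 and 3.55 CPM (wt), 2.29 and 11.7 (KO) and 3.37 (control), and the D15 libraries 23.7 and 23.2 (wt), 52 and 64.6 (KO) and 40.1 (control). E8 libraries held 12.5 and 12.3 TPM of *Lef1* (wt D7), 9.36 and 9.52 (KO D7), 4.68 and 4.59 (wt D15) and 15.4 and 16 (KO D15). It was the one member called higher in *Tsix*-stop KO EBs, by 1.31 ± 0.55 (edgeR FDR 0.094). That call was lost with DESeq2 and in 6 of the 8 fits that left out 1 library, with values of 1.17 to 1.48. In E8 KO it was higher at D15 by 1.57 ± 0.04, and its fall between the days in wt (-1.25 ± 0.04) gave an interaction of 1.93 ± 0.06 (limma FDR 1.4e-06).
Nkd1 binds Dishevelled and dampens the signal that induced it. *Nkd1* at D0 was at 1.52 and 1.07 CPM (wt), 1.91 and 4.14 (KO) and 2.76 (control), and at D15 at 31.6 and 34 (wt), 5.32 and 6.06 (KO) and 6.71 (control) in *Tsix*-stop cells. *Nkd1* in E8 measured 1.84 and 2.04 TPM (wt) against 2.05 and 2.33 (KO) at D7, and 1.12 and 1.82 (wt) against 4.72 and 4.8 (KO) at D15. *Tsix*-stop KO EBs were below wt (-2.53 ± 0.34, edgeR FDR 0.0013), with the CRISPR control beside them. At D0 the KO libraries were higher by 1.22 ± 0.35 (edgeR FDR 0.055), a call lost without KO replicate 2 of that day (0.56), and the interaction of -3.75 ± 0.49 was called (-3.06 without the same library). E8 KO was higher at D15 by 1.24 ± 0.13.

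In ES cells KO replicate 2 stood apart in all 3 targets. It held 41.9 CPM of *Axin2*, 11.7 of *Lef1* and 4.14 of *Nkd1*, against 11.1, 2.29 and 1.91 in KO replicate 1. *Sp5*, *Cdx1* and *Cdx2*, further genes known to respond to the pathway, were compared here after their values were seen. At D0 KO replicate 1 held 3.87, 5.86 and 0.379 CPM of them. The CRISPR control held 16, 12.1 and 1.86 CPM, above both wt libraries (1.45 and 1.97, 4.22 and 6.07, 0.369 and 0.604). KO replicate 2 held the most of each, 19.1, 46.9 and 5.36 CPM, and lay near the control only in *Sp5*. Without it 1 member was called at D0, and without KO replicate 1 instead 7 were. *Notum*, *Sfrp2* and *Nkd1* lost their D0 call in 3, 4 and 7 of 16 other settings, all 3 when the CRISPR control was counted among the wt libraries (1.03, 1.07 and 0.76). That setting called 0 members at D0 by edgeR, with 4 at an unadjusted p under 0.05. The share of all genes called in it is not given here.

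The 16 members called between the *Tsix*-stop genotypes at D15 fell into 2 sets by the CRISPR control library, which has no replicate. On the log2 scale the control was nearer to KO for 9 of them, *Dkk2*, *Dkk3*, *Sfrp5*, *Fzd1*, *Fzd4*, *Wnt11*, *Wnt5a*, *Nkd1* and *Lef1*. It was nearer to wt for the other 7, *Wnt3*, *Wnt6*, *Wnt9a*, *Rspo3*, *Fzd2*, *Dkk1* and *Frzb*. How all called genes divided by this library is not given here, so these counts are not read as a trait of the members. When the control was counted among the wt libraries, 11 of the 35 tested members were called, all lower in KO. The share of all genes called in that fit is not given here. *Dkk3*, *Fzd4*, *Sfrp5*, *Wnt5a* and *Lef1* were then no longer called, at -1.03, -1.32, -0.76, -2.0005 and 1.01.

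Markers of several cell types differed between the genotypes too, some in the direction of most called members and some against it. In *Tsix*-stop EBs 10 fibroblast markers summed to 2659 to 3000 TPM (wt), 210.3 to 264 (KO) and 112 (control), and 8 of the 9 tested were lower in KO. The 10 visceral endoderm markers summed to 712 to 798 TPM (wt), 40.4 to 58 (KO) and 42.4 (control), with 9 of 10 lower. The endoderm marker *Ttr* was at 0 in every *Tsix*-stop library of D0. Cardiac muscle markers were lower in KO EBs for 4 of 5 tested, with sums of 122 to 155 TPM (wt), 30.7 to 53.8 (KO) and 24.9 (control). Of 4 endothelial markers tested 2 were lower, and of 3 neural markers 2 were higher and 1 lower. The 5 primitive streak and mesoderm markers, of which 1 was tested and not called, summed to 35.5 to 36.6 TPM in wt, 49.7 to 50.3 in KO and 62 in control EBs. The 9 pluripotency markers, 2 of them called higher in KO EBs, summed to 9125 to 10034 TPM (wt), 11899 to 14864 (KO) and 8701 (control).
In E8 all 10 visceral endoderm markers were higher in KO on both days, with sums of 22.5 to 23.5 TPM in wt against 1369 to 1374 in KO at D7, and 16.7 to 17.2 against 301 to 302 at D15. The fibroblast sum was 22.3 to 23.7 TPM in wt and 58.8 to 60.4 in KO at D15. Markers of the primitive streak and mesoderm, 4 of 4 tested higher in KO at D15, summed to 12.9 to 13.8 TPM in wt and 78.4 to 81.6 in KO. At D7 1 of the same 4 was lower in KO, with sums of 32.9 to 34.3 TPM in wt and 28.3 to 28.6 in KO. Cardiac and endothelial sums were lower in KO at D7, 29 to 31.6 TPM against 8.66 to 10.8 and 76.5 to 79.9 against 38.6 to 40.1, with 1 marker called in each list. The pluripotency markers summed to 13424 to 13477 TPM in wt and 4750 to 4868 in KO at D7 (4 of 9 called lower), and to 17014 to 17855 and 8019 to 8233 at D15 (1 called lower). In whole cultures, fewer cells of a type and less RNA per cell cannot be told apart, and the part of cell composition in the differences of the Wnt genes was not tested.

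**Figure D2:**
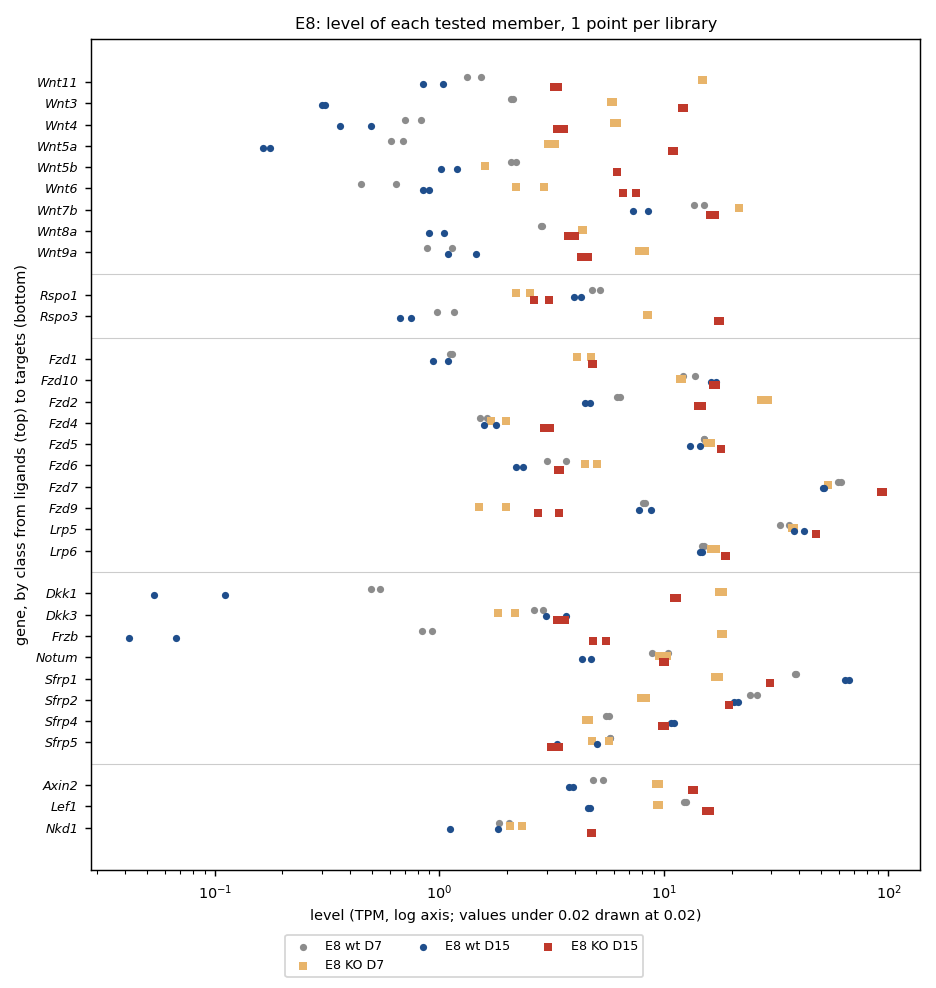
Level of the 32 tested members in E8 cells, in TPM on a log axis, with 1 point per library and rows grouped from ligands to targets. The red KO D15 points of *Wnt3*, *Wnt5a*, *Rspo3* and *Dkk1* lay at 10.8 TPM or more, and the blue wt D15 points of the same genes under 1 TPM.

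Set side by side at D15, 31 members were tested in both lines and 12 of them were called in both. Of the 12, 11 were lower in *Tsix*-stop KO and higher in E8 KO: *Wnt3*, *Wnt5a*, *Wnt6*, *Wnt9a*, *Wnt11*, *Rspo3*, *Fzd1*, *Fzd2*, *Dkk1*, *Frzb* and *Nkd1*. *Lef1* was higher in both. The same opposition ran through the whole table, where 591 of the 11956 genes tested in both lines were called in both and 565 of these, 95.6%, went in opposite directions. For the members the share was 91.7%. The tables of the lines were normalized separately, and no test between lines was made.

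**Figure D3:**
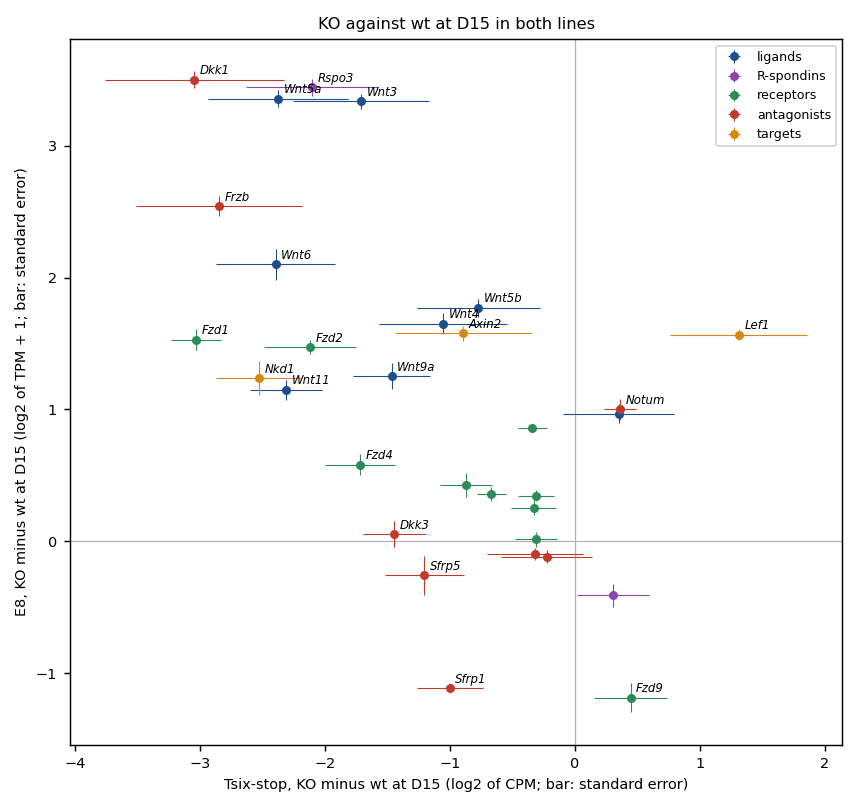
Difference between KO and wt at D15 for the 31 members tested in both lines, *Tsix*-stop on the x axis (log2 CPM) and E8 on the y axis (log2(TPM + 1)), coloured by class, with standard errors as bars. Named genes were called in at least 1 line, and most of them lie in the upper left, lower in *Tsix*-stop KO and higher in E8 KO.

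The promoters of 4 genes with this opposite pattern are shown because each holds the core of the site that TCF/LEF factors bind, TCAAAG or its reverse complement CTTTGA, on either strand. Each sequence gives the 250 bases before a RefSeq start site (GRCm38.p6), 5′ to 3′ along the gene, with the core in capitals. They lie at chr19:30549497-30549746, minus strand (*Dkk1*), chr2:80447397-80447646, minus strand (*Frzb*), chr5:4758217-4758466, minus strand (*Fzd1*) and chr7:98834862-98835111, plus strand (*Wnt11*).
Dkk1: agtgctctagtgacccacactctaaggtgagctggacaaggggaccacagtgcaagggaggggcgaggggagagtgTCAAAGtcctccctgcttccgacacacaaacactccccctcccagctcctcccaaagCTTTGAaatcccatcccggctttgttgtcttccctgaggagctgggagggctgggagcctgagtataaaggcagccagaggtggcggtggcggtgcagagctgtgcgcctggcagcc
Frzb: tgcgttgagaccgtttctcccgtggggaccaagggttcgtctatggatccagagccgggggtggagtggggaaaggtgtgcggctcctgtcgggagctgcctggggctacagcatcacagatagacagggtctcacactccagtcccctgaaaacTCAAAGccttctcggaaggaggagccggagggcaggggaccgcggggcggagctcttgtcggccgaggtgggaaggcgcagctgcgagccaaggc
Fzd1: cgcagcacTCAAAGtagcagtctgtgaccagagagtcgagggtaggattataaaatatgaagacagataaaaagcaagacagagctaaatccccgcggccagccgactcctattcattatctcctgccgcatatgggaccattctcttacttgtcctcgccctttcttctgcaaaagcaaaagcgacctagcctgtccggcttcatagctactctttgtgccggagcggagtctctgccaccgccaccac
Wnt11: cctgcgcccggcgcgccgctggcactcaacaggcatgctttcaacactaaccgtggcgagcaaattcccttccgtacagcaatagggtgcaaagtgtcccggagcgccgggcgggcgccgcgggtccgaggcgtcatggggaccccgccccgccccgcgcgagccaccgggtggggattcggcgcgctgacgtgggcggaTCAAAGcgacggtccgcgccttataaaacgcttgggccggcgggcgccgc
The core begins 174 and, on the other strand, 117 bases before the start in *Dkk1*, and 95, 242 and 50 bases before it in *Frzb*, *Fzd1* and *Wnt11*. The search covered 300 bases, from 250 before to 50 after the start. A window was given for 32 of the 49 members, and 6 of their 38 windows held the core, 15.8%, against 16% of all 32851 windows and 11.6% of the 12750 windows of genes tested in *Tsix*-stop cells. Among the 28 windows of members tested in these cells 6 held it, 21.4%. Of the 11 genes with the opposite pattern 3 had no window. The other 8 had 9 windows, and the 4 shown were those with the core. The windows of *Wnt3*, *Wnt6*, *Wnt9a* and *Nkd1* and a second window of *Wnt11* did not hold it. Besides the 4 shown, the core stood in a window of *Wnt5b* and in 1 of the 4 windows of *Lef1*, and the window of *Axin2* did not hold these letters. The windows of the members had a median of 24.5 CpG dinucleotides and 67% G and C, those of tested genes 20 and 61%, and all windows 7 and 52.7%. Neither the matches nor the base composition was tested for a part in the differences.

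Reads over SNPs gave the share of the 129 allele in *Tsix*-stop cells, which come from a cross of 129 and *cast*. Whether each line of cells kept both copies of a gene was not tested. Autosomal genes with at least 20 such reads had a median share of 50 to 51.6% per library, and 2.93 to 6.55% of them were at 80% or more. The 95% Wilson intervals given cover counting error only, since reads without molecular identifiers are not independent molecules. The members described were chosen after their shares were seen, *Axin2* and *Fzd7* as examples nearer the middle. *Axin2* was at 57.9% and 59.3% (wt), 67.3% (58.1 to 75.3%, 110 reads) and 54.1% (KO) and 57.3% (control) at D0. At D15 it was at 49% and 46.7% in wt EBs and at 57.4% and 53.7% in KO EBs, and *Fzd7* at 57.9% and 54% against 56% and 57.8%.
*Notum* was nearly all from 129 in ES cells and in KO EBs, and balanced in wt and control EBs. At D0 the 129 share was 94.4% and 95.2% (wt), 94% and 91.1% (KO) and 92.7% (control). In wt EBs it was 55.5% (47.1 to 63.5%, 137 reads) and 55.5% (46.1 to 64.4%, 110 reads). The KO EBs held a share of 98.6% (95.1 to 99.6%, 146 reads) and 88.5% (82.6 to 92.6%, 157 reads), and the control was at 53.1% (46.1 to 59.9%, 196 reads). The intervals of the KO EBs thus did not meet those of the wt and control EBs, while the total level differed by 0.36 (log2, edgeR FDR 0.059). Reads of the antisense genes named above would enter these shares too.
*Wnt11*, *Dkk3* and *Sfrp1* leaned to 129 in ES cells in every genotype. In wt EBs *Wnt11* and *Sfrp1* were within 5 points of 50%, and *Dkk3* leaned to *cast*. *Wnt11* was at 85.3% and 93.1% in wt at D0 on 34 and 29 reads, and at 45.5% and 50.2% at D15. *Sfrp1* went from 71.5% and 71.7% to 51.6% and 53.4% in wt. *Dkk3* was at 88.4% and 74.6% in wt at D0, 41.9% and 42.3% in wt at D15, and 65.8% and 61.4% in KO at D15. The CRISPR control of that day was at 67.3% (58.2 to 75.2%, 113 reads) for *Dkk3*, beside the KO libraries.
*Lef1* leaned to *cast* at D0, with a 129 share of 16.7% and 20.2% in KO and 20.7% in the control. In wt it was 41.2% (26.4 to 57.8%, 34 reads), an interval that holds 50%, and 30.8% (18.6 to 46.4%, 39 reads). In KO EBs it stayed below the wt share, and the control of D15 was at 52.5%. Its KO shares at D15 were 39.7% (36.4 to 43.2%, 785 reads) and 36.4% (33.3 to 39.6%, 894 reads), and its wt shares 51.4% (46.7 to 56.1%, 426 reads) and 49.5% (44.2 to 54.9%, 327 reads). *Wnt7a* had 129 shares of 56.4% and 32% in wt EBs, 41.8% in the control and 100% (93.8 to 100%, 58 reads) in KO replicate 2. KO replicate 1 of D15 held 6 reads of 129 and 0 of *cast* for it. The shares were not tested between groups, and with 2 libraries a group an exact permutation test could not go below a p of 0.333. The ES cells were grown on feeder cells that were removed before use. At D0 the fibroblast sum was 18.3 to 22 TPM (wt), 5.02 to 5.4 (KO) and 6.71 (control), and its part in the D0 shares was not tested.

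**Figure D4:**
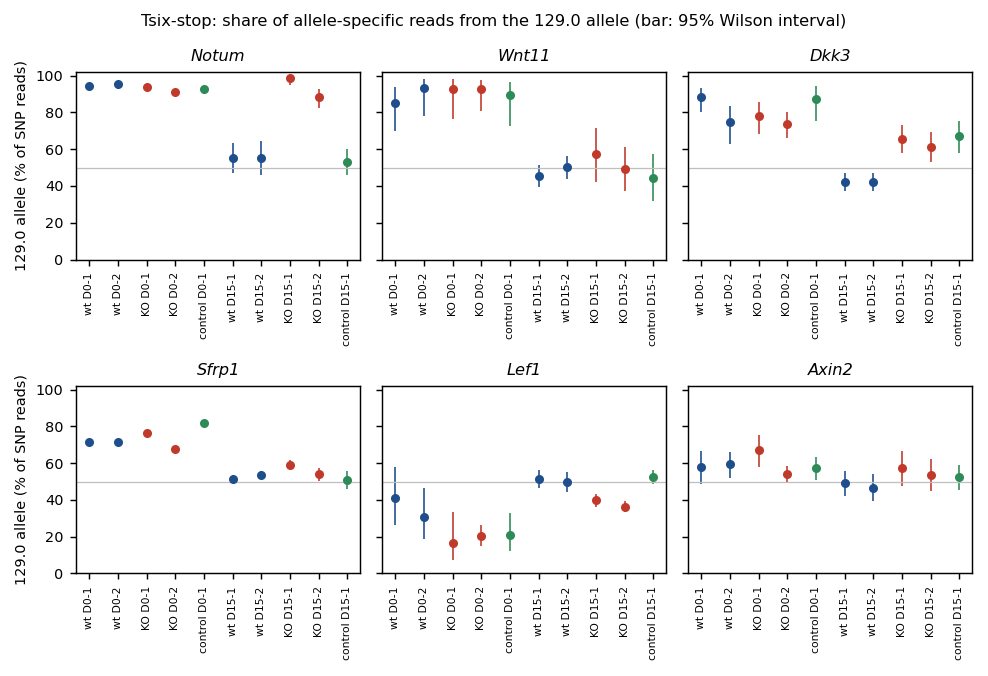
Share of SNP reads from the 129 allele for 6 members in the 10 *Tsix*-stop libraries, in percent, with 95% Wilson intervals as bars. *Notum* stayed near the top in both KO D15 libraries while wt and control D15 libraries lay at 53.1 to 55.5%, and *Axin2* lay between 46.7% and 67.3% over all 10 libraries.

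Of 57 further genes of the pathway, 51 were tested in *Tsix*-stop cells and 45 in E8. At D0, 3 were higher and 1 lower in *Tsix*-stop KO, beside 3.11% and 5.01% of all genes. At D15, 2 were higher and 12 lower, beside 3.83% and 11.1%. In E8, 9 were higher and 1 lower at D7, beside 11.4% and 6.18%, and 11 higher and 0 lower at D15 by limma (7 lower at an unadjusted p under 0.05), beside 7.67% and 3.08%. The medians of the list at D15 were -0.27 in *Tsix*-stop and 0.19 in E8. The 11 genes of the complex that degrades beta-catenin and of the relay above it gave 0 calls in *Tsix*-stop cells on either day by edgeR and by DESeq2, with 2 (D0) and 4 (D15) at an unadjusted p under 0.05 by edgeR. Of all genes 8.12% and 14.9% were called, and with 11 genes a count of 0 is not read as a difference from that share.
The largest differences in *Tsix*-stop EBs were *Daam2* (-3.98 ± 0.23) and *Prickle1* (-2.39 ± 0.36) of the polarity branch and *Rnf43* (-2.26 ± 0.29), which removes Frizzled receptors from the surface, all lower in KO. Then came *Sp5*, a target, at 2.36 and 3.12 CPM (wt), 0.343 and 0.858 (KO) and 7.67 (control), a difference of -2.19 ± 0.73. *Daam2* was at 24.4 and 24.7 CPM (wt), 1.42 and 1.7 (KO) and 1.36 (control), so its control library lay just under KO. With *Prickle1* and *Rnf43* the control, at 25 and 7.02 CPM, fell between the wt and KO libraries. Why the control differed from wt was not tested. The largest differences in E8 at D15 were *Cdx2* (4.89 ± 0.09), *Wls* (2.69 ± 0.05), *Prickle1* (2.53 ± 0.06) and *Daam2* (2.17 ± 0.09), all higher in KO. At D7 *Cdx2*, *Wls*, *Tcf7l2* and *Prickle1* led, between 2.13 and 2.78.
The 2 genes that Wnt secretion needs went opposite ways in *Tsix*-stop EBs and were named after their values were seen. *Wls*, which carries the ligands to the surface, was at 178 and 149 CPM (wt), 16.7 and 61.6 (KO) and 126 (control) at D15 (-2.06 ± 0.47). The X-linked *Porcn*, which adds the lipid, was at 39.4 and 44.3 CPM (wt), 212 and 165 (KO) and 112 (control) at D15 (2.17 ± 0.16).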

How the data were processed

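RNA was measured in 18 libraries of female mouse cells. Per the methods, RNA was sequenced as 75 bp single-end reads and diploid expression was estimated with TopHat. For allele-specific expression the methods describe mapping to pseudogenomes of 129 and *cast*. The processing notes name Bowtie2 2.4.5 and TopHat2 2.1.1. The annotation and the strand used in counting are not given in the sources used here. For *Tsix*-stop cells the authors deposited estimated counts per gene and numbers of reads with 129 or *cast* SNPs. What each count column holds is not stated, and the one named 129 stands here for diploid expression, with the 7.10% of its values that held a decimal part rounded. For E8 they deposited TPM, with 24.9 to 29.8% of the total on small RNA genes. Values per length in *Tsix*-stop cells used GENCODE vM21 exon lengths. Depth was 51091148 to 68796172 counts, with 9210225 to 12095548 SNP reads.

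*Tsix*-stop counts were tested with edgeR 4.0.16 (TMM factors, quasi-likelihood test) in R 4.3.3, with the 8 libraries of wt and KO fitted jointly, and E8 values with limma 3.58.1 on log2(TPM + 1) in 1 fit of its 8 libraries. The CRISPR control, with 1 library per day, was kept out of the fits. A gene entered at 2.5 CPM or TPM in at least 2 libraries and counted as called from 2-fold upward where its FDR over all genes was 0.1 or less. Both tests were checked on simulated data. Alternatives were DESeq2 1.42.0, upper-quartile factors, other filters and thresholds, pseudocounts of 0.1 and 0.5, median scaling, the control added to wt, a replicate block and each library left out. After the data were seen, E8 fits without small RNA genes were added.

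Of the members, 37 are given in every library and 12 by their range (*Wnt2* by library instead), and at most 4 other pathway genes per comparison are named, by size of change, unless said otherwise. Members, marker lists and pathway lists were chosen with earlier results of these data known. Promoters came from RefSeq (GRCm38.p6), which had no window for 17 members.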

Additional observations from a re-analysis of the deposited data

Results flagged for a closer look

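The change from D0 to D15 in *Tsix*-stop cells was not the same in KO and wt for 14 members, by edgeR's quasi-likelihood test of the interaction at an FDR of at most 0.1. Of all genes tested in this line 17.1% had a called interaction. On the log2 scale, KO change minus wt change, the interaction was -3.92 for *Frzb*, -3.75 for *Nkd1*, -3.55 for *Fzd1*, -2.75 for *Wnt11*, -2.17 for *Dkk3*, -2.15 for *Fzd4*, -1.93 for *Fzd2*, -1.92 for *Wnt9a*, -1.88 for *Sfrp2*, -1.82 for *Fzd6*, -1.22 for *Sfrp1*, -1.21 for *Sfrp5*, -1.09 for *Fzd8* and 1.66 for *Wnt7b*. Of these, *Wnt7b*, *Fzd8*, *Frzb*, *Sfrp5* and *Sfrp1* lost the call in 10 of 16, 9 of 16, 8 of 15, 8 of 16 and 6 of 16 other settings. Without KO replicate 1 of D0 the interaction was -3.02 for *Frzb*, -1.0996 for *Sfrp2* and 2.89 for *Wnt7b*, and without KO replicate 2 of D0 -3.06 for *Nkd1* and 1.02 for *Wnt7b*. Without KO replicate 1 or 2 of D15 it was -3.12 or -5.67 for *Frzb*, and without KO replicate 2 of D15 -2.65 for *Fzd2*.

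In E8 the change from D7 to D15 differed between the genotypes for 9 members, by limma's test of the interaction at the same threshold. Of all genes tested in E8 7.25% had a called interaction. The values of the members were -1.56 for *Wnt11*, 1.02 for *Fzd7*, 1.12 for *Nkd1*, 1.25 for *Rspo3*, 1.43 for *Sfrp2*, 1.93 for *Lef1*, 2.02 for *Wnt5a*, 2.05 for *Wnt5b* and 2.19 for *Wnt3*. *Nkd1* lost this call in 1 of 16 other settings.

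At D15 both KO libraries lay below both wt libraries in *Tsix*-stop cells and above them in E8 for 11 members called in each line. Of all 591 genes called in both lines 565, 95.6%, went in opposite directions, and of the members called in both 91.7%. The log2 differences between KO and wt, *Tsix*-stop first and E8 second, were *Dkk1* (-3.04 and 3.50), *Frzb* (-2.85 and 2.54), *Fzd1* (-3.03 and 1.53), *Fzd2* (-2.12 and 1.47), *Nkd1* (-2.53 and 1.24), *Rspo3* (-2.10 and 3.44), *Wnt11* (-2.31 and 1.15), *Wnt3* (-1.71 and 3.34), *Wnt5a* (-2.37 and 3.36), *Wnt6* (-2.39 and 2.10) and *Wnt9a* (-1.46 and 1.25). The difference between the lines was not tested, since their tables were normalized separately and the deletions, parental strains and cultures differed.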

How the results depend on the processing

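Over the called members and their alternatives, 2002 values kept their direction and call, 108 kept their direction and lost the call, and none reversed. The alternative without a minimum fold could not lose a call by construction. Members that were no longer tested under a stricter filter are not among these values. Requiring at least 4 libraries at 2.5 CPM, by which fewer genes are tested, gave 8 members for KO against wt at D15, 17 for D15 against D0 in wt and 13 in KO in *Tsix*-stop cells, instead of 16, 27 and 21. With the CRISPR control counted among the wt libraries, 0 members were called at D0 by edgeR (4 at an unadjusted p under 0.05) and 3 for the *Tsix*-stop interaction, instead of 3 and 14. Without a minimum fold, 8 were called at D0, 26 in E8 at D7, 25 between D7 and D15 in E8 wt, 29 in E8 KO and 24 for the E8 interaction, instead of 3, 14, 2, 6 and 9. Between D7 and D15 in E8 wt, a pseudocount of 0.1 gave 7, one of 0.5 gave 5 and leaving out small RNA genes 5. In E8 KO a pseudocount of 0.1 gave 10 and leaving out small RNA genes 11, and the latter gave 14 for the E8 interaction. Shares of all genes called under these settings and those below are not given here, so the counts are not read as a result about the members. Unless the construction shows it, the cause of a changed count was not tested.

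Leaving out each library in turn gave 1 to 7 members at D0 (1 without KO replicate 2 7 without KO replicate 1 of D0 and 6 without either KO library of D15), 13 to 19 at D15, 25 to 27 and 19 to 22 between the days in wt and KO, and 8 to 18 for the interaction in *Tsix*-stop cells (8 without either wt library of D15). In E8 the ranges were 14 to 14 at D7, 18 to 20 at D15, 2 to 3 and 6 to 7 between the days in wt and KO, and 8 to 11 for the interaction. A lone library was assumed to vary like the other groups.

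Libraries with the same number deviated from their group means with correlations of -0.156 to 0.198 in *Tsix*-stop cells and -0.162 to 0.116 in E8. The highest, 0.198, was that of the *Tsix*-stop KO libraries of D0 with those of D15. Correlations of this size cannot tell whether libraries of the same number share a clone or a culture, which was not tested. With the replicate block 3, 18, 26, 21 and 15 members were called in the *Tsix*-stop comparisons (D0, D15, wt, KO and interaction) and 14, 19, 2, 6 and 9 in the E8 comparisons (D7, D15, wt, KO and interaction).

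With 2 libraries a group, every call rests on the spread pooled over genes and groups. E8 values carry no depth, and *Tsix*-stop genes with a few counts at D0, such as *Dkk2* and *Frzb*, have wide ratios.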
